A study of Homo sapiens with 8 samples.

Results

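The angiogenic factors described here are the VEGF ligands VEGFA, VEGFB, VEGFC and PGF, the VEGF-C cofactor CCBE1, the angiopoietin ANGPT1, the angiopoietin-like factors ANGPTL2 and ANGPTL4, and HGF with its receptor MET. They were chosen by gene symbol and make up 10 of the 16796 genes of the count files. They were followed in LX-2, an established human cell line derived from hepatic stellate cells (HSCs) that has the features of a liver myofibroblast in culture. All cells were grown in medium with 5% fetal bovine serum. Control cells received the solvent DMSO for 24 h. OGTi cells received 50 µM OSMI-1, a small-molecule inhibitor of the O-GlcNAc transferase OGT, for 24 h. There were 4 libraries from biological replicates per group, and they all came from 1 cell line. The comparison asked how inhibition of protein O-GlcNAcylation changes the transcripts of these factors.

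The VEGF ligands act on the receptor tyrosine kinases FLT1, KDR and FLT4, mostly found on endothelial cells, with neuropilins as co-receptors. VEGFA drives the growth of blood vessels, whereas VEGFC drives that of lymphatic vessels once its precursor has been cleaved, a step that CCBE1 promotes. In the liver, HSCs are a source of such factors for sinusoidal endothelial cells and of HGF for hepatocytes, which respond through MET.

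The libraries held 24166756 to 28201215 estimated counts, and 12829 to 13180 genes per library reached 10 counts. The labels named no sequencing batch. Of 10 stellate cell and myofibroblast markers, DES, LRAT and LUM were at or below 3 counts on average over the 8 libraries, while the summed level of the list was 189571 to 216933 normalized counts in control and 146164 to 178377 in OGTi libraries. Normalized counts are counts divided by a size factor for depth. VIM and COL1A1 made up most of the stellate cell sum. COL1A1, COL1A2, COL3A1, PDGFRB and ACTA2 were called lower in DESeq2, with log2 fold changes of -0.95, -1.39, -2.50, -0.90 and -1.75. TIMP1 was called higher (0.47 ± 0.10), and VIM was not called (-0.09 ± 0.07). Endothelial markers summed to 1171 to 1569 normalized counts in control and 1540 to 2746 in OGTi libraries. Most of this sum was TIE1, which rose and is described with the TIE receptors. The other endothelial markers summed to 110.1 to 147.5 in control and 57.1 to 91.4 in OGTi libraries, and KDR and ERG were below 3 counts per library on average. Of these others, CDH5 and TEK were called lower in DESeq2, and PECAM1, VWF and ESAM were not called, with log2 fold changes of -0.54 ± 1.08, -0.40 ± 0.47 and 0.18 ± 0.37. Hepatocyte markers summed to 19.5 to 74.0 in control and 26.0 to 74.0 in OGTi libraries, and cholangiocyte markers to 68.6 to 141.3 and 35.2 to 77.1. Macrophage markers summed to 2482 to 4089 and 5610 to 9391, nearly all of it CD68, while PTPRC and CSF1R had means under 10. The part of these markers in the results was not tested. In bulk RNA, fewer expressing cells and less RNA per cell cannot be told apart.

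OGTi changed the angiogenic factors in both directions. ANGPTL4, PGF, VEGFA and MET rose, and CCBE1, VEGFC and VEGFB fell. ANGPTL2 did not pass the test, and ANGPT1 and HGF were close to 0 in both groups. All 10 genes passed the filter of 10 counts in total, and 8 of them had an adjusted p-value (q). DESeq2 called 7 of these 8 at a q of 0.05 or lower, against 46.6% of the 14028 genes with a q. The 4 higher genes stand against 22.7% of all genes called higher, and the 3 lower genes against 24.0% called lower. The 4 control and 4 OGTi values did not overlap for 6 of the genes, against 38.0% of the 14895 genes tested. At least 2-fold changes were called for 4 of them, ANGPTL4, PGF, VEGFA and CCBE1, against 8.55% of all genes. The genes were chosen with earlier results of these data known, so these counts are no test of an excess. The median log2 fold change of the 8 genes was 0.27, beside 0.00 over all genes tested. All 7 called genes had the same direction in the 4 pairs of libraries with the same replicate number. The fit behind the calls used these same pairs, so this adds no separate evidence.

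**Figure D1:**
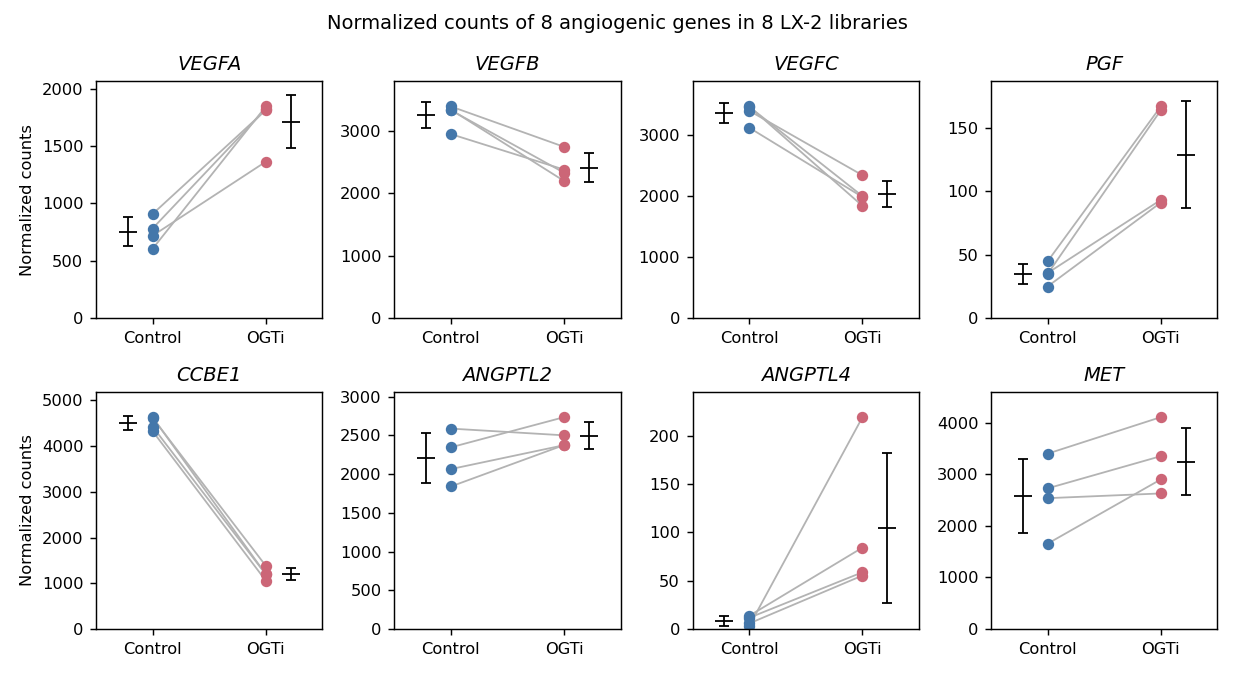
Normalized counts (vertical axes from 0) of 8 angiogenic genes in 4 control (blue) and 4 OGTi (red) libraries. Grey lines join libraries of the same replicate number, and black marks are the mean with SD. CCBE1 goes from 4330 to 4635 down to 1055 to 1380 without overlap, VEGFA goes from 604 to 907 up to 1363 to 1844, and the control and OGTi points of MET and ANGPTL2 overlap.

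The sequence before the transcription start was read from RefSeq (GRCh38.p14) for 8 of the 10 genes, and VEGFA and ANGPT1 had no entry. Stretches are shown 5′ to 3′ for a pair of genes that rose, ANGPTL4 and PGF, and for a pair that fell, VEGFC and its cofactor CCBE1. The capitals mark a match to ACGTG or to the TATA box, TATAAA, on either strand. ACGTG is a form of the core letters of the hypoxia response element and is called the hypoxia core here. Its other form, GCGTG, was neither searched nor marked. The stretches of PGF and CCBE1 are shortened to keep to sequence outside annotated exons. The stretches of ANGPTL4 and CCBE1 lie within the annotated span of their gene, but in no exon, and those of PGF and VEGFC lie upstream of it.
ANGPTL4, chr19:8363905-8364154, plus strand: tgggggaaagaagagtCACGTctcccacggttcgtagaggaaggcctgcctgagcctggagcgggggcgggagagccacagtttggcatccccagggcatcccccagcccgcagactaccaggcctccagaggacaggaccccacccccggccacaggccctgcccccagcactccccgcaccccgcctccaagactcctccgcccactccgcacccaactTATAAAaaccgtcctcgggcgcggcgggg
PGF, chr14:74955627-74955847, minus strand: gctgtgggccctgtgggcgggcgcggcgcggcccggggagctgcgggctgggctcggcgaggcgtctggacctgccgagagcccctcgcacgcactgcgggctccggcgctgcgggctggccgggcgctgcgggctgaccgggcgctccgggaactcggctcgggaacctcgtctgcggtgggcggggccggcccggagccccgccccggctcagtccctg
VEGFC, chr4:176792923-176793172, minus strand: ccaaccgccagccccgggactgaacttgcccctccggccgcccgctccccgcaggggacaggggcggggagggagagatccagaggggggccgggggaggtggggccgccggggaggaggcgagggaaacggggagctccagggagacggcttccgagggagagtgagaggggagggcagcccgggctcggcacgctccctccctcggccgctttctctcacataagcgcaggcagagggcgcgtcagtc
CCBE1, chr18:59697470-59697576, minus strand: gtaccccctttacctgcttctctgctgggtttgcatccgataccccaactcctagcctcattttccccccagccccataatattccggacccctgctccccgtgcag

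In the full 250 bases before the start, the 8 genes held few matches to the letters searched. ANGPTL4 had the hypoxia core, read as CACGT on the strand shown, at position -234 from the start and the TATA box at position -29. CCBE1 had the hypoxia core at position -215, outside the stretch printed. HGF had the TEAD core, GGAATG, at position -204. VEGFB, VEGFC, PGF, ANGPTL2 and MET held none of the letters searched, which also included the AP-1 site TGANTCA but not GCGTG. Of 35116 promoters of the same length, 18.5% held the hypoxia core, which is also part of the E-box CACGTG, 11.9% the TEAD core, 10.7% the TATA box and 6.57% the AP-1 site. The share of G and C was 50% for HGF and 63.2% to 82.8% for the others, beside a median of 58% over all promoters. A match describes the letters only, and binding was not measured.

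VEGFA (chromosome 6, 43770184 to 43786487), the main ligand of KDR, had 718, 907, 604 and 781 normalized counts in control replicates 1 to 4. In OGTi replicates 1 to 4 it had 1363, 1813, 1844 and 1821. Every OGTi library was above every control library, and OGTi replicate 1 was the lowest of its group. The mean rose from 752.5 ± 126.0 to 1710 ± 232 (SD, n = 4 each), or 2.28-fold. The log2 fold change was 1.19 ± 0.11 (SE, DESeq2 q of 3.99e-24). Its 95% interval was 0.96 to 1.41, and within pairs the log2 ratio ran from 0.92 to 1.61. By size of fold change VEGFA stood at place 424 of the 3181 genes called higher.

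PGF (chromosome 14, 74941834 to 74955626) encodes placental growth factor, a ligand of FLT1 but not of KDR. It was expressed at a low level, with 44.8, 34.8, 35.6 and 25.0 normalized counts in control and 167, 164, 93.3 and 91.2 in OGTi replicates 1 to 4. The groups did not overlap, and OGTi replicates 1 and 2 lay above OGTi replicates 3 and 4. Its mean rose from 35.0 ± 8.1 to 128.8 ± 42.3, or 3.62-fold. On the log2 scale this was 1.86 ± 0.28 with a 95% interval of 1.31 to 2.40 (DESeq2 q of 2.30e-10). The pairs gave 1.90, 2.24, 1.39 and 1.87 on the log2 scale.

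VEGFB (chromosome 11, 64234584 to 64239264), which also binds FLT1, moved the other way. It had 3334, 3385, 2943 and 3325 normalized counts in control and 2193, 2739, 2375 and 2325 in OGTi replicates 1 to 4. The groups did not overlap, and control replicate 3 was the lowest of its group. The mean fell from 3247 ± 204 to 2408 ± 234, and its log2 fold change was -0.43 ± 0.08 with a 95% interval of -0.59 to -0.27 (DESeq2 q of 6.41e-07). This was a smaller change than the median absolute value of 0.52 over all called genes.

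The lymphangiogenic ligand and its cofactor were both lower. VEGFC (chromosome 4, 176683538 to 176792922) had 3392, 3462, 3115 and 3458 normalized counts in control and 2337, 1836, 1981 and 1995 in OGTi replicates 1 to 4. Every OGTi library lay below every control library, and OGTi replicate 1 was the highest of its group. The mean fell from 3357 ± 164 to 2037 ± 212, and its log2 fold change was -0.72 ± 0.08 with a 95% interval of -0.89 to -0.56 (DESeq2 q of 9.76e-17). The log2 ratio within pairs ran from -0.91 to -0.54.

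CCBE1 (chromosome 18, 59430939 to 59697662) encodes a secreted protein that promotes the cleavage of VEGF-C by the protease ADAMTS3. Its control libraries had 4428, 4330, 4621 and 4635 normalized counts, and its OGTi libraries had 1194, 1055, 1380 and 1196. The spread within each group was small beside the gap between them. The mean fell from 4503 ± 149 to 1207 ± 133, which was 3.75-fold lower, with a log2 fold change of -1.91 ± 0.08 and a 95% interval of -2.06 to -1.75 (DESeq2 q of 3.72e-122). Among all genes tested, 10 had a larger absolute Wald statistic. By size of fold change CCBE1 stood at place 153 of the 3360 genes called lower, VEGFC at place 1077 and VEGFB at place 2032. CCBE1 had fractional counts in 6 of 8 libraries, so some of its reads were shared with other alignments.

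ANGPTL4 (chromosome 19, 8363289 to 8374370) encodes a secreted inhibitor of lipoprotein lipase that also acts on endothelial cells, and it is a known target of PPAR receptors and of hypoxia. Its control libraries held 3, 6, 10 and 13 reads, or 2.92, 5.64, 11.5 and 13.5 normalized counts. Its OGTi libraries had 219, 55.2, 58.6 and 84.1 normalized counts. The groups were far apart, and replicate 1 had both the lowest control and the highest OGTi value. The mean rose from 8.39 ± 4.95 to 104.3 ± 77.7, and the log2 fold change was 3.46 ± 0.48 (DESeq2 q of 9.19e-12). The fold was 11 with a 95% interval of 5.71 to 21.2. Without replicate 1 it was 6.66, with a log2 fold change of 2.74 ± 0.52 and a DESeq2 q of 1.30e-06. ANGPTL4 stood at place 23 by fold among the 3181 genes called higher.

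ANGPTL2 (chromosome 9, 127087348 to 127122635), a secreted factor linked to inflammation and vessel growth, was abundant and differed little. It had 1840, 2346, 2065 and 2588 normalized counts in control and 2376, 2736, 2374 and 2501 in OGTi replicates 1 to 4. The groups overlapped, and the OGTi value was the higher in 3 of 4 pairs. The means were 2210 ± 326 and 2497 ± 170, with a log2 fold change of 0.19 ± 0.09, a 95% interval of 0.02 to 0.35 and a DESeq2 q of 0.0652. Without replicate 4 the value was 0.26 and passed the threshold (DESeq2 q of 0.0281).

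ANGPT1, the agonist ligand of the receptor TEK, was hardly detected. Its estimated counts were 2.93, 0, 0 and 4 in control and 2, 0, 2 and 0 in OGTi replicates 1 to 4. HGF (chromosome 7, 81699010 to 81770438), the growth factor for hepatocytes, had 0, 5, 0 and 2 counts in control and 5, 0, 1 and 1 in OGTi libraries. A count of 0 allows up to 3 counts per library, and at this depth no difference between groups was detectable for either gene. These limits cover counting error only.

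MET (chromosome 7, 116672196 to 116798377), the HGF receptor, was expressed in all libraries. It had 1653, 2536, 2726 and 3399 normalized counts in control and 2900, 2628, 3351 and 4108 in OGTi replicates 1 to 4. The groups overlapped widely, but each OGTi library was above the control of its own number, by 0.81, 0.05, 0.30 and 0.27 on the log2 scale. MET rose from 2579 ± 719 to 3247 ± 647, and its log2 fold change was 0.36 ± 0.10 with a 95% interval of 0.15 to 0.56 (DESeq2 q of 0.00213). This call rested on the pairing, and over genes control replicate 3 deviated more like OGTi replicate 4 (correlation of 0.343) than like OGTi replicate 3 (0.165). Without the replicate block the log2 fold change was 0.33 in DESeq2 (q of 0.289) and 0.34 in edgeR (q of 0.153). Without replicate 1, which had the largest difference, it was 0.21 with the block (DESeq2 q of 0.0436).

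**Figure D2:**
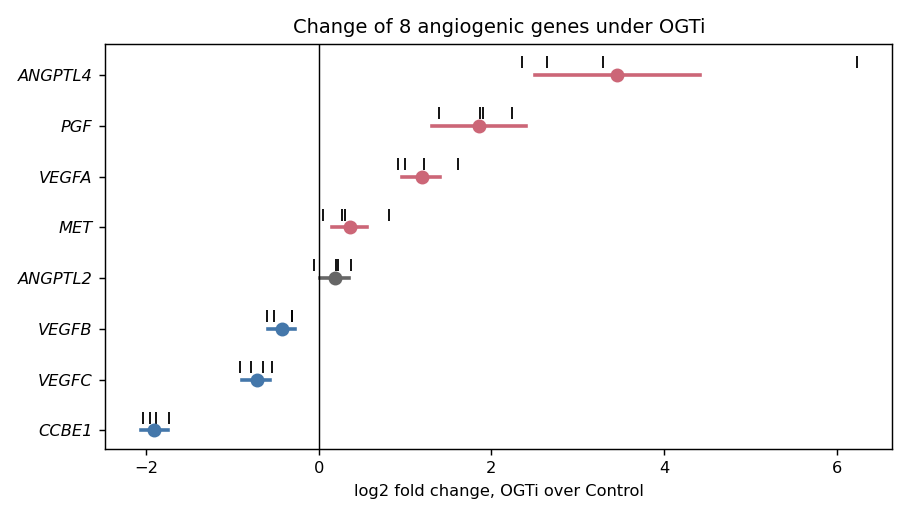
Log2 fold change of OGTi over control (horizontal axis) for 8 angiogenic genes, as the DESeq2 estimate (dot) with its 95% interval (line). Black ticks are the 4 pairs, red is called higher, blue is called lower and grey is not called. The estimates run from -1.91 for CCBE1 to 3.46 for ANGPTL4, whose pair of replicate 1 lies at 6.23.

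Relative to VEGFA, the other abundant VEGF ligands shrank. In each library the ratio of counts of 2 genes does not depend on the scaling for depth. The ratio of VEGFB to VEGFA was 4.64, 3.73, 4.87 and 4.26 in control and 1.61, 1.51, 1.29 and 1.28 in OGTi replicates 1 to 4. The mean log2 ratio was 2.12 ± 0.17 in control and 0.50 ± 0.17 in OGTi cells, a difference of -1.62. The ratio of VEGFC to VEGFA was 4.72, 3.82, 5.15 and 4.43 in control and 1.71, 1.01, 1.07 and 1.1 in OGTi libraries. Its mean log2 ratio was 2.17 ± 0.18 and 0.26 ± 0.35, a difference of -1.91. Counts are not per length here, so a ratio of 1 does not mean equal numbers of transcripts. For both ratios the groups did not overlap, and the two-sided exact permutation p was 0.0286, the smallest that 4 against 4 libraries allow (q of 0.0429 over the 3 ratios). VEGFA rose and VEGFB and VEGFC fell without overlap, so this separation and its p were already fixed by those values. The test therefore adds no support to the separate changes, and the ratios give only their size. With the replicate block, the exact sign-flip p was 0.125 for each, the smallest that 4 pairs allow, so the paired test cannot pass 0.05.

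PGF relative to VEGFA did not pass the test. The ratio was 0.0624, 0.0383, 0.0589 and 0.032 in control and 0.123, 0.0903, 0.0506 and 0.0501 in OGTi libraries, and the groups overlapped. The mean log2 ratio was -4.44 ± 0.47 in control and -3.78 ± 0.64 in OGTi cells (difference of 0.66, exact permutation p of 0.171, q of 0.171).

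**Figure D3:**
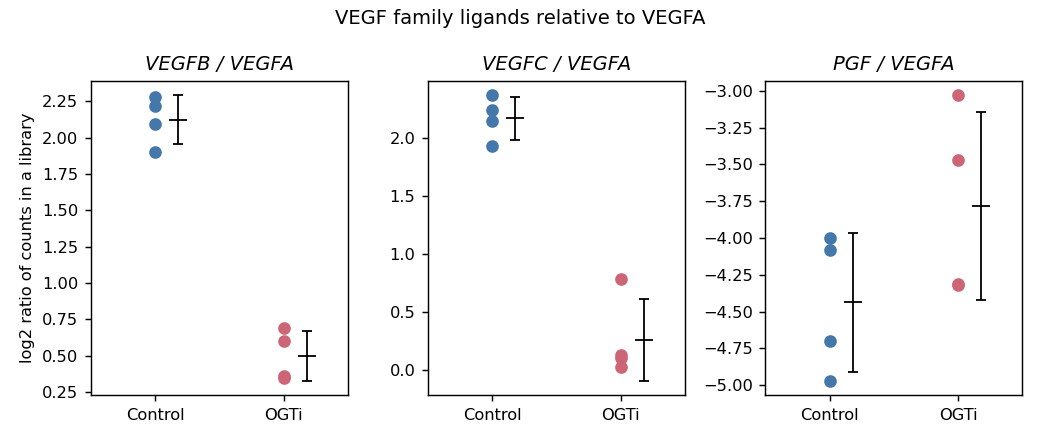
Log2 ratio of the counts of VEGFB, VEGFC and PGF to those of VEGFA in each control (blue) and OGTi (red) library, with the mean and SD in black. The vertical axes differ between panels. The mean ratio of VEGFB falls from 2.12 to 0.50 and that of VEGFC from 2.17 to 0.26, without overlap, while the points for PGF overlap.

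Levels of different genes were set side by side per kb of exon sequence. In control cells VEGFB was highest, at 1648 ± 104 normalized counts per kb, and VEGFC followed at 1284 ± 63. CCBE1 (637.7 ± 21.1) and ANGPTL2 (609.6 ± 89.9) came next and overlapped. MET was at 357 ± 100 and VEGFA at 52.2 ± 8.7. PGF (6.04 ± 1.40) and ANGPTL4 (3.39 ± 2.0) overlapped, as did ANGPT1 and HGF near 0. The ranges of the other 6 of 9 neighbours in this order did not overlap.

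In OGTi cells VEGFB remained in the highest place per kb at 1222 ± 119. VEGFC (779 ± 81) and ANGPTL2 (689 ± 47) now overlapped, and MET was at 449 ± 90. CCBE1 moved below MET, to 171 ± 19. VEGFA was at 118.5 ± 16.1, and ANGPTL4 (42.2 ± 31.4) and PGF (22.2 ± 7.3) overlapped. The length matters most for VEGFA, whose exons together span 14.431 kb against 3.609 kb for its canonical transcript. With that transcript the level of VEGFA was 208.5 ± 34.9 per kb in control and 473.9 ± 64.3 in OGTi cells, overlapping MET in each group, and CCBE1 came below VEGFA in OGTi cells. PGF was at 20.1 ± 4.7 and 74.1 ± 24.3 per kb of its canonical transcript, which put it above ANGPTL4 without overlap in control cells and above it with overlap in OGTi cells. The overlap of VEGFC and ANGPTL2 in OGTi cells was absent with the canonical or the longest transcript. With the longest transcript, VEGFA and ANGPTL4 overlapped in OGTi cells.

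**Figure D4:**
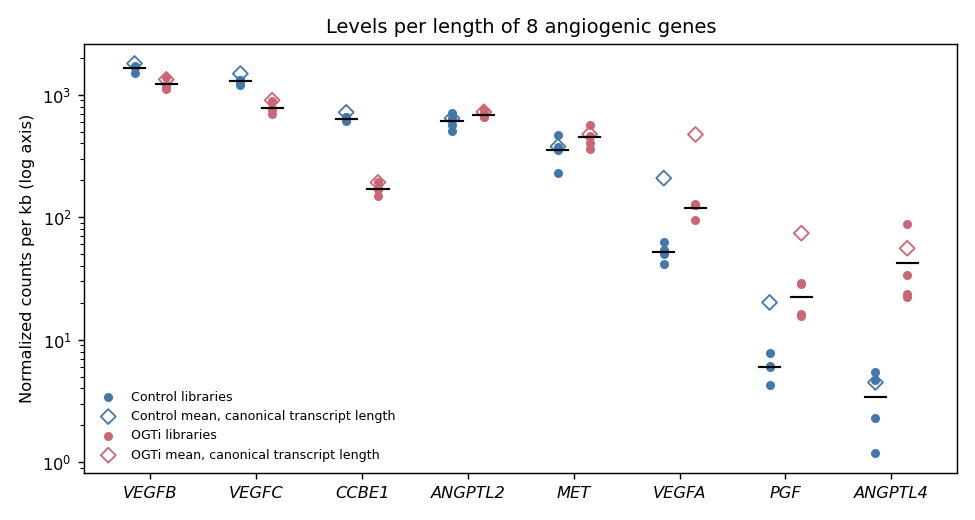
Normalized counts per kb of exon sequence (log axis) of 8 genes in each control (blue) and OGTi (red) library, with the mean as a black line. Open diamonds are the group means with the length of the canonical transcript. VEGFB and VEGFC lie highest in control cells, at 1648 and 1284 per kb, and CCBE1 goes from 637.7 to 171.

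The genes whose pattern over the 8 libraries was most like that of each factor were sought among the 10994 genes that averaged 100 normalized counts or more. The measure was the root mean square difference of centred log2 values, and it describes likeness only. For VEGFA they were FTL (0.0948) and MKNK2 (0.121), and for CCBE1 they were ANXA3 (0.102) and CXCL12 (0.118). For VEGFC they were DHODH (0.060) and THRA (0.0706), and for VEGFB SMO (0.042) and DNAJC15 (0.0488). ANGPTL2 was closest to ATP6V1G1 (0.0472) and TWNK (0.0583). MET was closest to DDI2 (0.112) and MOSMO (0.116). PGF, ANGPTL4, ANGPT1 and HGF were too low for this comparison.

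Of the VEGF receptors and co-receptors, NRP2 alone was called in DESeq2. NRP2, a co-receptor for VEGF-C and VEGF-A, rose from 341.4 ± 19.8 to 672.7 ± 95.2 normalized counts (log2 fold change of 0.97 ± 0.13, DESeq2 q of 3.58e-13). FLT1 had 254.9 ± 68.3 and 333.5 ± 132.9 (0.34 ± 0.15, DESeq2 q of 0.0512), and NRP1 had 2163 ± 255 and 2550 ± 563 (0.22 ± 0.23, DESeq2 q of 0.461). FLT4 was at 4.56 and 6.86 on average (0.54 ± 0.92, DESeq2 q of 0.669) and KDR at 1.01 and 1.26. In all, 1 of 4 genes with a q was higher and 0 lower, beside 22.7% and 24.0% of all genes, with a median log2 fold change of 0.44. This median includes FLT4, whose value rests on few reads. With edgeR and the block, or with a stricter filter on low counts, 2 genes were called higher. FLT1, NRP1, FLT4 and KDR are named outside the naming rule, after their values were seen.

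Of 11 other VEGF and angiopoietin ligands and TIE receptors, 8 were in the files and 3 had a q. The orphan receptor TIE1 rose from 1238 ± 183 to 1839 ± 557 normalized counts (log2 fold change of 0.54 ± 0.11, DESeq2 q of 1.61e-06). OGTi replicates 1 to 4 had 2655, 1479, 1741 and 1483, and without replicate 1 the log2 fold change was 0.43 (DESeq2 q of 4.41e-04). TIE1 had fractional counts in 7 of 8 libraries, so some of its reads were shared with other alignments. ANGPTL6, chosen after its values were seen, rose from 2.37 ± 1.90 to 14.5 ± 5.8 (2.82 ± 0.91, DESeq2 q of 0.00585). TEK, the receptor of ANGPT1 and also named afterwards, fell from 16.1 ± 7.3 to 4.72 ± 4.94 (-2.04 ± 0.79, DESeq2 q of 0.0242). The call of TEK was lost without replicate 1, 3 or 4 and in edgeR without the block, where 0 genes of the list were lower. Without replicate 2, or with the stricter filter, 1 gene was higher in place of 2. Of all genes, 22.7% were called higher and 24.0% lower. The median log2 fold change of the list was 0.03.

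Among the 6 genes of the VEGF-C maturation list, 5 had a q, of which 1 was higher and 2 were lower, beside 22.7% and 24.0% of all genes. ADAMTS2, a procollagen protease related to ADAMTS3, fell from 186.4 ± 13.9 to 73.9 ± 23.5 normalized counts (log2 fold change of -1.38 ± 0.23, DESeq2 q of 2.45e-08). FURIN, a proprotein convertase, fell from 5453 ± 468 to 4405 ± 315 (-0.31 ± 0.07, DESeq2 q of 6.68e-05). PCSK5, another convertase named after its values were seen, rose from 17.1 ± 5.9 to 82.2 ± 35.9 (2.25 ± 0.36, DESeq2 q of 5.67e-09). ADAMTS3 itself, the protease that CCBE1 assists, was at 0.747 and 0.240 on average, below 3 counts per library. PCSK7 had a log2 fold change of 0.00 ± 0.08, and the median of the list was 0.00.

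The list of HGF activation and MET signalling had 15 genes with a q, 3 called higher and 2 lower. These shares were below the 22.7% and 24.0% of all genes, and the median log2 fold change was 0.03. PLAT, the tissue plasminogen activator, rose from 1959 ± 307 to 4102 ± 1057 normalized counts (1.05 ± 0.10, DESeq2 q of 1.14e-23). The adaptor SHC1 rose from 6670 ± 219 to 8808 ± 395 (0.40 ± 0.07, DESeq2 q of 6.29e-08). The phosphatase PTPN11 fell from 8857 ± 2001 to 6452 ± 695 (-0.44 ± 0.08, DESeq2 q of 5.58e-07), with overlapping groups. The other called genes, named after their values were seen, were MST1, an HGF-like ligand (1.11 ± 0.23, DESeq2 q of 1.08e-05), and PLXNB1, a MET partner (-0.40 ± 0.10, DESeq2 q of 0.000454).

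VEGFA and ANGPTL4 are known targets of hypoxia-inducible factors (HIFs), and ANGPTL4 is also one of PPAR receptors, so these pathways were described as well. Neither gene was counted in the lists. A part of these pathways in the changes of VEGFA and ANGPTL4 was not tested. Of the HIF pathway, 8 genes had a q, 2 were higher and 3 lower, beside 22.7% and 24.0% of all genes, with a median of -0.09. ARNT2, a dimer partner of HIF subunits, fell from 1469 ± 82 to 268.8 ± 28.1 normalized counts (log2 fold change of -2.45 ± 0.11, DESeq2 q of 5.84e-104). EGLN2, an oxygen-dependent HIF hydroxylase, fell from 1543 ± 131 to 955.2 ± 62.4 (-0.69 ± 0.09, DESeq2 q of 3.68e-14). EPAS1, which encodes HIF-2 alpha, rose from 8249 ± 464 to 10290 ± 463 (0.32 ± 0.07, DESeq2 q of 1.02e-05). The other called genes, named after their values were seen, were HIF1A, which rose (0.41 ± 0.09, DESeq2 q of 1.16e-05), and VHL, which fell (-0.25 ± 0.11, DESeq2 q of 0.0377). For both the groups overlapped. The call of VHL was lost without the replicate block in DESeq2 and edgeR, and also without replicate 1, 2 or 4. ARNT, named in the same way, was not called (-0.08 ± 0.10, DESeq2 q of 0.566).

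Of the 24 hypoxia-responsive genes with a q, 12 were called higher and 3 lower, beside 22.7% and 24.0% of all genes, and the median log2 fold change was 0.29 beside 0.00 over all genes. NDRG1 rose from 1098 ± 144 to 3168 ± 532 normalized counts (1.52 ± 0.08, DESeq2 q of 6.21e-75). The glucose transporter gene SLC2A1 rose from 2678 ± 101 to 4839 ± 261 (0.85 ± 0.07, DESeq2 q of 6.98e-31), and the collagen prolyl hydroxylase gene P4HA1 from 436.9 ± 29.9 to 874.5 ± 44.9 (1.0 ± 0.11, DESeq2 q of 2.92e-19). The genes called lower, named after their values were seen, were ADM (-0.76 ± 0.10), BNIP3L (-0.39 ± 0.08) and LDHA (-0.56 ± 0.07). Another 9 were not called, among them PGK1 (-0.02 ± 0.06) and BNIP3 (0.11 ± 0.09), named in the same way. Over the alternative settings, 9 to 13 genes of the list were called higher and 3 or 4 lower.

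Of the 17 PPAR receptors and target genes with a q, 5 were called higher and 3 lower, close to the 22.7% and 24.0% of all genes, with a median of 0.15. ACADVL, which encodes an enzyme of fatty acid oxidation, rose by 0.38 ± 0.08 on the log2 scale (DESeq2 q of 8.66e-06). The receptor gene PPARD rose by 0.25 ± 0.07 (DESeq2 q of 0.00105). The genes called lower, named after their values were seen, included PPARG, which encodes another PPAR receptor and went from 49.2 ± 18.9 to 11 ± 5.6 normalized counts (-2.22 ± 0.45, DESeq2 q of 5.70e-06). The others were RXRA, the gene of a dimer partner of PPAR receptors (-0.26 ± 0.08), and SLC25A20, which encodes the mitochondrial carnitine carrier (-0.42 ± 0.18). Without replicate 4 the list had 3 genes higher and 1 lower.

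Of the endogenous angiogenesis inhibitors, 9 had a q, 5 were called lower and 1 higher, beside 24.0% and 22.7% of all genes, with a median of -0.25. This median was over 10 genes and includes SERPINF1, which had few reads and no q (0.86 ± 2.17). ADAMTS1, a protease that sequesters VEGF-A, fell from 4837 ± 495 to 891.3 ± 127.4 normalized counts (log2 fold change of -2.44 ± 0.10, DESeq2 q of 9.33e-120). The matrix glycoprotein THBS2 fell from 11971 ± 2161 to 4910 ± 882 (-1.28 ± 0.08, DESeq2 q of 3.46e-54). TIMP3, which blocks binding of VEGF-A to KDR, fell from 12274 ± 1065 to 7944 ± 440 (-0.63 ± 0.07, DESeq2 q of 1.04e-15). Also lower, and named after their values were seen, were THBS1 (-0.48 ± 0.09) and COL18A1 (-0.21 ± 0.08), the gene from which endostatin is cut. SEMA3F, a ligand of NRP2 named in the same way, rose (0.93 ± 0.12, DESeq2 q of 1.35e-14).

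**Figure D5:**
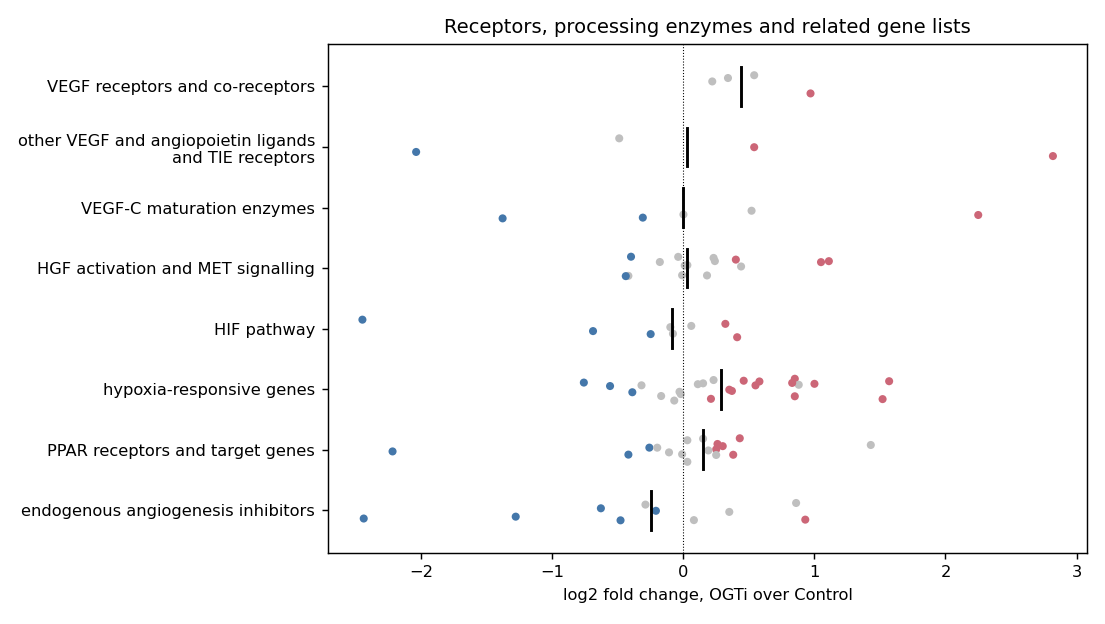
Log2 fold change of OGTi over control (horizontal axis) for the genes of 8 lists around the angiogenic factors, with genes called higher in red, called lower in blue and not called or without a q in grey. Genes at or below 3 counts per library in both groups are left out, the black line is the median of a list and vertical scatter is for legibility. The medians run from -0.25 for the angiogenesis inhibitors to 0.44 for the VEGF receptors. Both of these include a gene with few reads, SERPINF1 for the inhibitors and FLT4 for the receptors.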

How the data were processed

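RNA of LX-2 cells was measured in 8 stranded libraries prepared after oligo dT selection. The authors aligned paired-end reads to hg38 with Bowtie2 2.3.5.1 and counted them with RSEM 1.3.1 set to count by strand. The deposited files hold expected counts per gene, which are estimated counts that share a read between its alignments, so 12.9% to 16.3% of genes per library were not at a whole number. They are not scaled for depth. The authors also deposited a table of their own comparison made with DESeq2 1.36.0, with fold changes and p-values, which was not used. 

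Expected counts were rounded, genes with a total under 10 counts were dropped, and 14895 genes were compared with the Wald test of DESeq2 1.42.0 in R 4.3.3. Replicate number was a block, as in the study's methods, fold changes were not shrunken, and q is the Benjamini-Hochberg adjusted p-value over all genes. The pairing was checked. Deviations from the group means correlated at 0.165 to 0.391 between libraries of the same number over 10994 genes, and at -0.346 to 0.343 otherwise. The highest value between different numbers was that of control 3 with OGTi 4, so for these replicates the pairing rests on the labels and the study's methods. Libraries of a group differed by more than counting error (a chi-square per degree of freedom of 8.38 to 34.7 in 12 pairs), so none was a copy. The 10 genes and the gene lists were chosen with earlier results of these data known. Besides these 10, the text names up to 3 called genes per list, those with the largest absolute Wald statistics among genes averaging 100 normalized counts or more. The values of 1 gene so chosen are not reported here. A gene whose mean was at most 3 counts per library in both groups was given no fold change. Library totals limit low genes, since a value near the floor rests on a few reads. Positions and lengths came from GENCODE 44 (GRCh38), and ratios and levels were computed in Python 3.11.15. The scripts were tested on simulated data. Alternatives were edgeR 4.0.16, no block, TMM sizes, other count filters and leaving out each replicate. The canonical transcript length was added after the data were seen.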

Additional observations from a re-analysis of the deposited data

Results flagged for a closer look

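Groups of 4 libraries were searched for a library standing apart, by the gap between its value and the nearest other as a share of the range. Of 64 groups, 4 passed Dixon's 95% limit, and chance gives about 1 in 20 groups, or 3.2 of 64. VEGFA had 1363 normalized counts in OGTi replicate 1, below 1813 to 1844 in the other OGTi libraries. The log2 ratio of VEGFC to VEGFA in the same library was 0.78, above 0.02 to 0.13 in the others. The ratio uses the VEGFA value of this library, so the flags of VEGFA and of the ratio are not independent. ADAMTS1 had 1081 normalized counts in this library, above 813.4 to 847.8. VEGFB had 2943 normalized counts in control replicate 3, below 3325 to 3385 in the other controls. In each case the groups still did not overlap.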

How the results depend on the processing

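Under 10 alternatives the 8 expressed angiogenic factors gave 80 log2 fold changes, of which 77 kept their direction and their side of the threshold and 0 reversed. MET was not called without the replicate block, at 0.33 in DESeq2 and 0.34 in edgeR. The block changed the call of no other angiogenic factor. ANGPTL2 ranged from 0.13 to 0.26 with 1 replicate left out and was called at 0.26 without replicate 4. The factors called numbered 6 to 8. With 1 replicate left out, the difference in log2 ratio to VEGFA ranged from -1.73 to -1.52 for VEGFB and from -2.06 to -1.80 for VEGFC, with an exact permutation p of 0.1, which 3 against 3 libraries cannot go below. With the replicate block the differences were -1.62 and -1.91 (exact p of 0.125). All 190 values of the 19 named list genes kept their call, and 150 of 160 list counts stayed within 1.5 times of the reported ones. Genes called in all numbered 5127 to 7074. Low depth limits ANGPT1, HGF and the control level of ANGPTL4, where 1 read is a large share of the value.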
